A study of Mus musculus with 24 samples.

Results

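The regions described here are the open and the acetylated regions of Meckel's cartilage (MC) at E14.5, of mouse embryos (strain C57BL/6, wild type). ATAC-seq, in which a transposase cuts accessible DNA, gave the open regions. CUT&Tag, in which a transposase is tethered to an antibody, gave the regions that carry the histone mark H3K27ac. All ATAC peaks in the authors' combined MC list (35710 peaks on the autosomes and X) and in the 3 lists of single MC libraries (54192, 43205 and 49872 peaks) were set against all 47549 peaks of the combined MC H3K27ac list. The members are thus defined by tissue, stage and assay, and by no measured value. They come from 6 of the 24 libraries of the series, 14 of which have a peak list. MC bars were dissected and digested to chondrocytes, per the labels, and each library started from 50000 cells. Whether each replicate is 1 animal or a pool is not in the labels, so p-values measure the spread between these libraries, which may be technical. The 3 forelimb cartilage (FL) ATAC lists of the same stage and strain were set against the same MC H3K27ac list where a comparison was needed.

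Meckel's cartilage is the rod around which the lower jaw forms, and most of its cells descend from neural crest of the first pharyngeal arch, which does not express Hox genes. Open chromatin marks promoters, enhancers and insulator sites, whether or not they are active. H3K27ac marks active promoters and active enhancers, and the nucleosome-free stretch at which factors bind lies between the acetylated nucleosomes. Sox9, with Sox5 and Sox6, drives the chondrocyte programme, and its targets include the genes of collagens II, IX and XI and of aggrecan.

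Most open regions of MC lay in acetylated chromatin, while in each single MC library, and in the combined list, more acetylated regions were without a called open region than with one. To show the sequences behind the promoter results, 6 promoters of genes described below are printed. They are single examples, and show neither the range of a class nor the mean difference between classes. Each is the 250 bases before the annotated start, 5′ to 3′, from the promoter table of RefSeq (GRCm38.p6, the build mm10). Capitals mark GC boxes, the GGGCGG element that Sp factors bind, on either strand. Acan (aggrecan) and Hapln1 (the link protein that ties aggrecan to hyaluronan) had both ATAC and H3K27ac at the promoter, Ucma (a secreted cartilage protein) had H3K27ac and no ATAC, Pax9 and Hoxd1 had ATAC and no H3K27ac, and Hoxd13 had neither.
Acan, chr7:79052976-79053225, plus strand: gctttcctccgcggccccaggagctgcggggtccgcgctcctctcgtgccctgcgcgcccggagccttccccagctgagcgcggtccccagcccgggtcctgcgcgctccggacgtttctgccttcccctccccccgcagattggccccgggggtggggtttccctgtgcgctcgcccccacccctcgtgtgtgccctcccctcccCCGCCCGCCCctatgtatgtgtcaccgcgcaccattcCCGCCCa
Hapln1, chr13:89540386-89540635, plus strand: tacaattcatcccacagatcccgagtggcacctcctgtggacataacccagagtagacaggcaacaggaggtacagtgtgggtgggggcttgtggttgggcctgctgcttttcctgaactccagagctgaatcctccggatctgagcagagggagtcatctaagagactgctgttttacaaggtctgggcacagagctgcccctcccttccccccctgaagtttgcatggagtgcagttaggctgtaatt
Ucma, chr2:4975872-4976121, plus strand: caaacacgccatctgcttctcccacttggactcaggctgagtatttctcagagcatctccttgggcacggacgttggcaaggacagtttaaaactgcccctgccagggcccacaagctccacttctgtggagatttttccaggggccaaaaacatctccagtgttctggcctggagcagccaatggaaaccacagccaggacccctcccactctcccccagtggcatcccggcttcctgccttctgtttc
Pax9, chr12:56695221-56695470, plus strand: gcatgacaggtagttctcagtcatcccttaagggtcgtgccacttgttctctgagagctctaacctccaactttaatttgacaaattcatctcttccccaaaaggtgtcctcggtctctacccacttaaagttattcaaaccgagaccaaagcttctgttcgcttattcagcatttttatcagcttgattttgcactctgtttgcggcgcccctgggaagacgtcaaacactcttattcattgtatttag
Hoxd1, chr2:74762730-74762979, plus strand: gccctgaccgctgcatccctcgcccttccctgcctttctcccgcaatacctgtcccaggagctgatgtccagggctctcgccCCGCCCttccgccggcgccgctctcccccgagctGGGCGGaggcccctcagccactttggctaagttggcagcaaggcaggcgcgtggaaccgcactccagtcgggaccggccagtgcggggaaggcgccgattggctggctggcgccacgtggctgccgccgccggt
Hoxd13, chr2:74667975-74668224, plus strand: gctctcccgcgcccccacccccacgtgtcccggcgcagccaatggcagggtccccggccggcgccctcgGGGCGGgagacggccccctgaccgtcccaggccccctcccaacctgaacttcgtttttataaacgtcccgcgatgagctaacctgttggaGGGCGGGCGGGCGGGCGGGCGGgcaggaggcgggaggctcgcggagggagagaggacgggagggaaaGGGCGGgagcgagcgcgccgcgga

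The Acan stretch held 3 GC boxes and 26 CpG dinucleotides, and the Hapln1 stretch held 0 GC boxes and 2 CpG dinucleotides, so both kinds occurred among open and acetylated cartilage promoters. The Ucma stretch held 0 GC boxes and 4 CpG dinucleotides. Of the open promoters without H3K27ac, the Pax9 stretch held 0 GC boxes and 7 CpG dinucleotides, and the Hoxd1 stretch held 2 and 24. The Hoxd13 stretch held 7 GC boxes, overlapping ones included, and 31 CpG dinucleotides, the most of the 6, in chromatin that was neither open nor acetylated in MC. It is not typical of its class: 12.6% of all promoters with neither mark held a GC box. The shares over all promoters are given with the promoter results.

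The combined H3K27ac list covered 408 Mb, or 15.5% of the genome, in peaks with a median width of 5511 bp (1248 to 234144 bp). The combined ATAC list covered 35.8 Mb, or 1.36%, in peaks with a median width of 854 bp. The H3K27ac lists of the 3 single MC libraries stood apart from their combined list: they held 68477, 73087 and 75531 narrower peaks with a median highest signal of 2, against 16 in the combined list. In these lists, 7.08%, 8.98% and 8.04% of the covered bases lay inside the combined H3K27ac list, which is under the 15.5% of the genome that list covers. They covered 2.05%, 2.12% and 2.11% of the genome and held 1.86%, 2.56% and 2.43% of the bases of the combined ATAC list. The single lists thus held about the share of ATAC bases that their cover of the genome gives. The combined H3K27ac list, with 15.5% of the genome, held 84.4% of these bases. How the authors made the combined list is not given in the sources used here. All results on H3K27ac below rest on the combined list, which is 1 pooled list with no replicate. The MC ATAC libraries shared between 0.363 and 0.470 of their covered bases pair by pair (Jaccard index), and their read depth is unknown.

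The first comparison asks how much open chromatin carried H3K27ac. A peak counted as acetylated when 1 bp or more of it lay in an H3K27ac peak. In the 3 MC libraries 69.6%, 77.2% and 72.6% of ATAC peaks were acetylated, and in the 3 FL libraries, set against the same MC H3K27ac list, 66.7%, 62.6% and 67.8% were. The groups did not overlap, and the mean was 73.1 ± 3.79% in MC and 65.7 ± 2.73% in FL (n = 3 libraries each, SD; p = 0.1 by a two-sided exact permutation test, the lowest that 3 against 3 allows). The difference of 7.40 percentage points was 4.81 with the same number of peaks per ATAC list (exact permutation p = 0.1) and 3.85 without replicate 2. The share in the combined MC list was 77.2%. Each of these shares stood far above the 15.5% of the genome in H3K27ac peaks. Overlaps were nearly always complete: between 1.32% and 2.20% of the peaks of the MC lists lay only partly inside an H3K27ac peak.

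Acetylation of open regions differed by their position relative to genes. ATAC peaks up to 1 kb from either end of a protein-coding gene were classed as near a gene end, and the rest as distal. Near gene ends, 86.0%, 85.8% and 84.8% of MC peaks were acetylated, against 85.0%, 82.6% and 84.9% of FL peaks. Distal peaks were acetylated in 63.6%, 73.0% and 67.6% of cases in MC, against 60.4%, 57.2% and 60.8% in FL. The MC and FL values overlapped near gene ends (85.5 ± 0.623% and 84.2 ± 1.37%, exact permutation p = 0.3) and did not overlap for distal peaks (68.1 ± 4.69% and 59.5 ± 2.01%, exact permutation p = 0.1; SD, n = 3 each). The gap between the tissues on the MC acetylation list was thus 1.31 percentage points near gene ends and 8.60 percentage points away from them. The mean number of peaks near gene ends was 14413 in MC and 14427 in FL, and that of distal peaks was 34677 in MC and 43515 in FL. Whether the distal gap depends on the number of peaks, and whether the tissue gap itself differs between the 2 kinds of peak, was not tested.

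Acetylated open regions were nearer to genes, wider and higher in rank than those without the mark, as the plot of paired values shows. Of acetylated MC peaks, 34.5 ± 1.62% lay near a gene end, against 16.3 ± 3.96% of peaks without H3K27ac (SD, n = 3). The difference was 20.7, 16.0 and 17.9 percentage points in the 3 libraries. Median width was 775, 974 and 877 bp with H3K27ac, against 601, 669 and 604 bp without. The median percentile of the authors' peak score within its list was 57.3 ± 0.851 with the mark and 34.9 ± 0.880 without (SD, n = 3). Each of these differences had the same direction in 3 of 3 libraries, with a two-sided exact sign-flip p of 0.25, the lowest that 3 libraries allow.

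**Figure D1:**
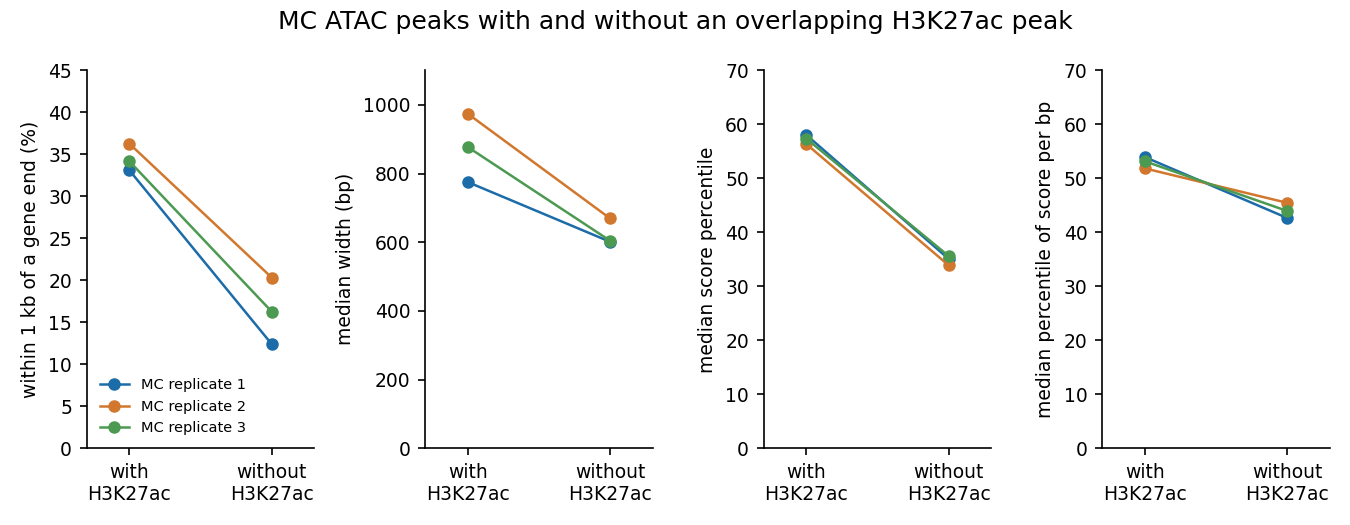
Each panel plots 1 property of MC ATAC peaks with (left) and without (right) an overlapping H3K27ac peak; each line is 1 of the 3 MC libraries. All 3 lines slope down in each panel, less steeply for the percentile of score per bp than for that of the score.

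The peak score grows with peak width, since it sums over the peak: the 2 had a Spearman correlation of 0.69 to 0.79 across the peaks of a list, as a description. Ranked by score per bp, the height of the peak, the medians were the percentiles 53.0 ± 1.06 with H3K27ac and 44.04 ± 1.401 without (SD, n = 3), a difference of 11.3, 6.38 and 9.21 percentile points. Ranked by the authors' −log10 p, the difference was 0, 6.87 and 13.4 percentile points (exact sign-flip p = 0.5), so no difference was seen on that scale in replicate 1. All peaks of each MC list were split into 5 bins of equal size by width, and the distal peaks of each bin were read. The bins held unequal numbers of distal peaks. Their acetylated share was 54.4 ± 2.51% in the narrowest bin and 89.6 ± 5.22% in the widest (SD, n = 3). By score per bp the shares of distal peaks in 5 such bins were 70.6%, 66.9%, 64.6%, 67.0% and 73.8% from lowest to highest, with no steady order. Within the widest bin the share did run upward with score per bp, with means of 83.7%, 88.4%, 90.1%, 92.3% and 95.2%. Within the narrowest bin it did not: in the highest bin of score per bp, against the second lowest, the share was 56.7% against 50.5% in replicate 1, 52.3% against 63.3% in replicate 2 and 45.4% against 55.2% in replicate 3.

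In 10 bins of equal size by score, 59.7 ± 4.80% of the lowest-scored MC peaks and 97.5 ± 1.32% of the highest-scored were acetylated (SD, n = 3). Distal peaks spanned 58.5 ± 5.46% to 95.5 ± 2.53%, with a higher mean in each further bin. Peaks near gene ends stood between 69.4% and 72.0% over the lowest 6 bins and reached 97.9 ± 0.973% in the highest. In the highest bin, distal peaks and peaks near gene ends were thus acetylated at nearly the same share. Most peaks of that bin were near gene ends, with 4294, 3609 and 4010 in the 3 libraries, against 1126, 712 and 978 distal ones.

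**Figure D2:**
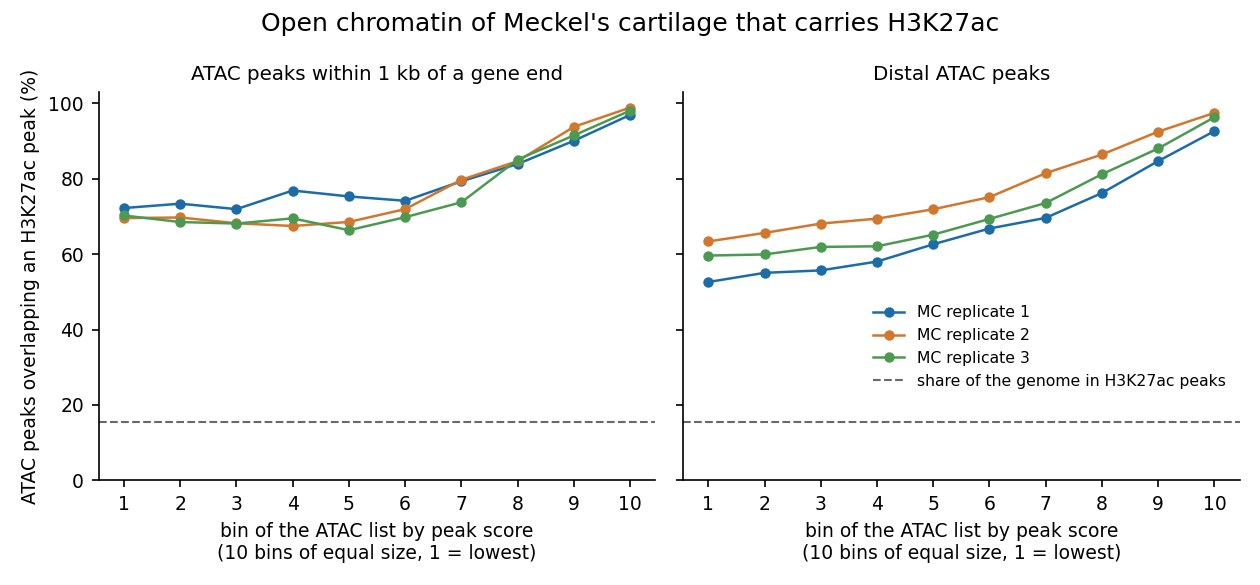
The share of MC ATAC peaks overlapping an H3K27ac peak (vertical axis, percent) is plotted by bin of each library's list in order of peak score (horizontal axis, 10 bins of equal size), near gene ends (left) and away from them (right); lines are the 3 MC libraries and the dashed line is the 15.5% of the genome in H3K27ac peaks. Every bin of every MC library lies above that line, and the 2 panels come together at the highest bin.

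Open regions that recurred across libraries were acetylated more often. The 3 MC lists merged into 39573 regions open in 1 library, 13588 open in 2 and 24276 open in all 3. H3K27ac overlapped 56.3%, 65.4% and 82.8% of these regions in the same order, as a description over regions. Of those open in 1 library, 51.4% of the regions of replicate 1, 67.0% of replicate 2 and 56.9% of replicate 3 were acetylated, so the libraries also differed in their private regions. The 24276 recurrent regions comprised 11506 near a gene end, 88.9% of which were acetylated, and 12770 distal ones, 77.3% of which were. Recurrent regions were also wider, with a median of 1442 bp, against 610 bp for regions of 1 library, and wider regions have more room to overlap.

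Open regions without H3K27ac were mostly not at the margin of an acetylated peak. In the combined list 8135 ATAC peaks had no H3K27ac, and their median gap to the nearest H3K27ac peak was 17.4 kb. Of these, 28.7% lay within 5 kb of one and 20.1% lay beyond 100 kb. The gap was 21.8 kb for the 1813 such peaks near a gene end and 16.1 kb for the 6322 distal ones. In the single libraries the median gap was 17.4, 13.5 and 16.9 kb.

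The second comparison turns the question round and asks how much acetylated chromatin held an open region. Of the 47549 H3K27ac peaks, 46.8%, 44.0% and 46.4% held an ATAC peak of the MC libraries, against 48.3%, 54.5% and 44.6% for the FL libraries. The ranges overlapped (45.8 ± 1.49% in MC and 49.1 ± 5.03% in FL; exact permutation p = 0.4; n = 3 each, SD). The sign of this difference turned to 0.03 percentage points above FL with the same number of peaks per ATAC list and to 0.19 without replicate 2. The combined MC ATAC list fell in 19178 of them, or 40.3%. ATAC peaks covered 7.40% of the acetylated bases, so open sites were small islands in wide acetylated stretches.

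Acetylated regions at genes were mostly open and distal ones mostly not. Near gene ends 79.8 ± 0.132% of the 13913 H3K27ac peaks held an ATAC peak, against 31.7 ± 2.06% of the 33636 distal ones (SD, n = 3 MC libraries). Of H3K27ac peaks holding ATAC, 51.1 ± 1.62% lay near a gene end, against 10.9 ± 0.234% of those without. Their median width was 7361, 7497 and 7249 bp with ATAC, against 4866, 4893 and 4897 bp without. Both differences had the same direction in 3 of 3 libraries (exact sign-flip p = 0.25 each, the lowest possible).

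The gap between gene ends and distal chromatin was present at each width. With the H3K27ac list in 5 bins of equal size by width, in the narrowest bin 80.7 ± 1.09% of peaks near gene ends and 26.4 ± 2.11% of distal peaks held ATAC. In the second bin, which was wider, the shares were lower, at 67.6 ± 0.531% and 19.5 ± 2.25%. In the widest bin they were 88.7 ± 0.710% and 61.9 ± 1.98% (SD, n = 3).

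**Figure D3:**
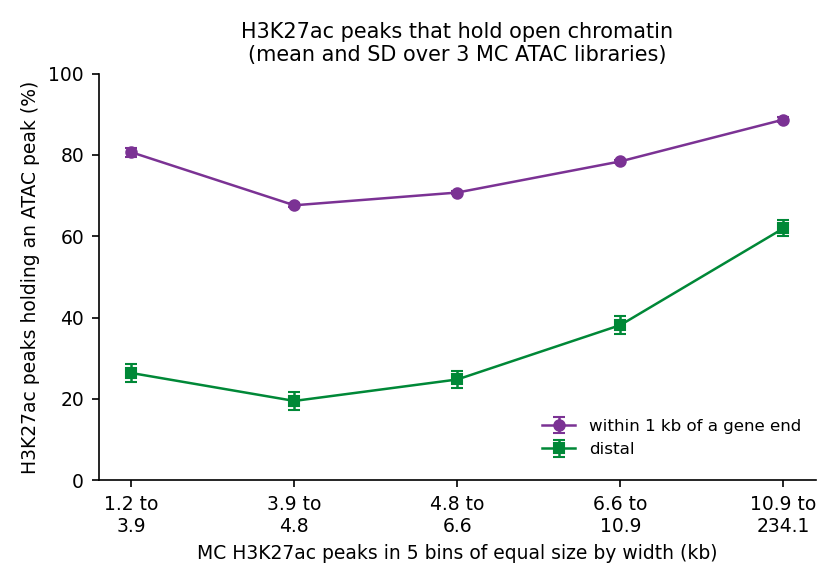
The share of MC H3K27ac peaks that hold an ATAC peak (vertical axis, percent) is plotted by bin of the list in order of width (horizontal axis, kb, 5 bins of equal size); points are means and bars SDs over the 3 MC ATAC libraries. The curve near gene ends lies above the distal curve in all 5 bins, and both are lowest in the second.

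The H3K27ac peaks split toward the extremes when counted by library. No MC library had an ATAC peak in 42.2% of them, 1 library in 13.3%, 2 in 9.32% and all 3 in 35.1%. The median highest H3K27ac signal was 14, 15, 17 and 23 in that order, and 9.75%, 13.2%, 19.8% and 61.4% lay near a gene end. In the combined list 30.7% of H3K27ac peaks held 1 ATAC peak, 6.06% held 2, 2.63% held 3 or 4 and 0.957% held 5 or more. The last group had a median width of 46073 bp, and 82.0% of it lay near a gene end.

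Inside acetylated regions that were open, the place of the highest H3K27ac signal mostly lay in the open site. Both assays cut DNA with a transposase, and whether signal height there reflects the amount of the mark was not tested. The place of the highest H3K27ac signal was used where the authors' list gave it to within 100 bp. In H3K27ac peaks holding ATAC, that place lay inside an ATAC peak in 65.9%, 76.0% and 73.3% of cases in the 3 MC libraries, although ATAC peaks covered 13.3%, 15.1% and 15.0% of the bases of these peaks. The share was 83.9 ± 3.92% near gene ends and 58.4 ± 6.05% in distal peaks (SD, n = 3). Over all such peaks it was 71.8 ± 5.24% with the MC libraries and 69.3 ± 1.502% with the FL libraries (SD, n = 3 each; exact permutation p = 0.5). The median distance from the highest point to the nearest ATAC summit was 295, 248 and 264 bp in the MC libraries, and 42.1 ± 2.39% lay within 200 bp.

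**Figure D4:**
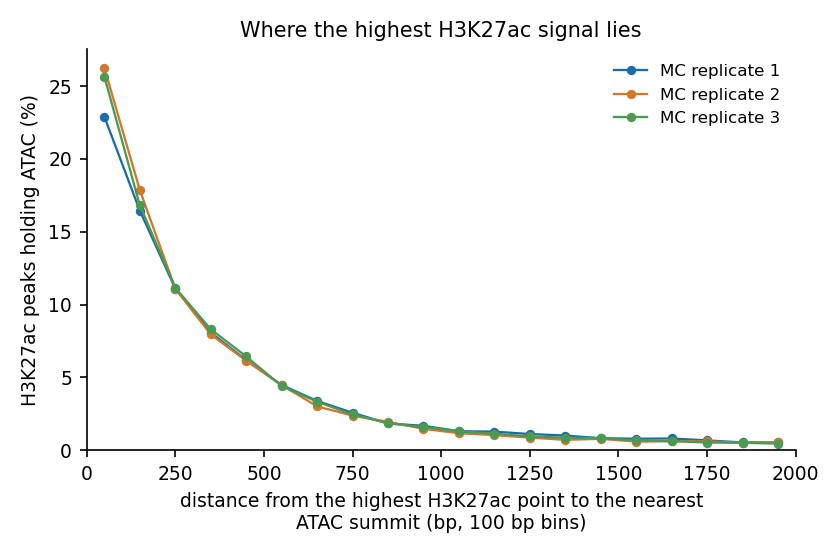
For H3K27ac peaks that hold an ATAC peak, the share of peaks (vertical axis, percent) is plotted by the distance from the highest H3K27ac point to the nearest ATAC summit (horizontal axis, bp, in bins of 100 bp); lines are the 3 MC libraries. The nearest bin holds the largest share in all 3 libraries, and the lines fall away together.

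The third comparison places both marks at named genes, using 21627 protein-coding genes and a window of 1 kb at either end of each gene span in the combined lists. Over all genes, 61.2% had an ATAC peak there, 64.9% an H3K27ac peak, 55.3% both and 29.2% neither. Of the 13226 genes with ATAC, 9.66% (1277) had no H3K27ac there, and of the 14032 genes with H3K27ac, 14.8% (2083) had no ATAC. In the single libraries 56.9% of genes were open at an end in all 3 and 32.3% in none. A gene span runs to its outermost annotated ends, so a gene used from an inner start can count as neither: Ywhaz, a reference gene, had no peak at its ends and 109 kb of H3K27ac in its domain, and it was chosen after its values were seen. The lists below are read against these shares, with no test.

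Most cartilage genes were open and acetylated at a gene end. Of 18 cartilage matrix genes, 14 had both marks, against 55.3% of all genes. None had ATAC without H3K27ac, against 9.66% of all genes with ATAC, and none of the reference genes did either. With 14 open matrix genes, this count lies near that share. Matn1 (matrilin 1), Snorc (a chondrocyte proteoglycan) and Ucma had H3K27ac and no ATAC in the combined list, but Matn1 and Snorc were open in 3 of 3 single libraries. Epyc (epiphycan, a small proteoglycan) had neither at its gene ends, and H3K27ac alone at an annotated start. Both marks stood at annotated starts in 11 of the 14 matrix genes that could be placed, and in 9576 of all 17273 genes with a start. Of 15 chondrocyte regulators 14 had both marks, and Pth1r, the receptor of parathyroid hormone-related protein, had H3K27ac alone. At annotated starts 8 of the 10 regulators that could be placed had both, Pth1r among them, while Sox5 had H3K27ac alone and Zbtb20 neither. Of 15 reference genes 14 had both.

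Domains were counted base by base: a base within genes went to the shortest of them, and a base between genes to the closest one up to 1 Mb away. The Col2a1 domain (collagen II, the main cartilage collagen) held 46.7 kb of H3K27ac, and its open chromatin measured 7.98, 14.53 and 13.47 kb in the 3 libraries. All of it lay inside H3K27ac in each library. Such full containment was common: in the combined lists it held for 9996 of the 15394 genes with open chromatin in their domain, and for 12 of 18 cartilage matrix genes. It also held in each library for Acan, whose open chromatin of 6.32, 6.65 and 5.48 kb lay wholly inside 93.4 kb of H3K27ac, and for Wwp2, a ubiquitin ligase gene that hosts the chondrocyte microRNA miR-140, with 7.32, 9.82 and 13.5 kb open. Sox9 had 159 kb of H3K27ac and 10.0, 11.2 and 7.40 kb of open chromatin inside it, against 0.935, 0 and 1.20 kb outside. Sox5 and Sox6 had far more acetylated than open chromatin: 506 kb of H3K27ac with 14.0 ± 2.95 kb of it open for Sox5, and 303 kb with 14.4 ± 1.47 kb open for Sox6 (SD, n = 3).

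Other cartilage domains held part of their open chromatin outside the mark. Trps1, a zinc finger repressor of the growth plate, had 6.47, 5.25 and 7.47 kb open inside H3K27ac, against 4.79, 3.16 and 7.40 kb outside. In none of the 3 libraries was more than 62.5% of its open chromatin acetylated. For Hapln1 the acetylated share was 58.0%, 88.4% and 66.2%, and for Comp (cartilage oligomeric matrix protein) it was 42.8%, 68.7% and 100%. The shares of Comp differed widely between libraries, with 0.828, 5.01 and 2.77 kb inside H3K27ac. Col9a1, Col11a1 and Col11a2, the partner collagens, had 77.5% or more of their open chromatin inside H3K27ac in each library. For Matn1 it was 54.0%, 92.3% and 73.8%, and for Nkx3-2, a homeobox gene of early cartilage, 100%, 100% and 95.5%. The reference genes Actb and Gapdh had 98.9% or more in each library.

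Genes of later cartilage and bone were mixed. Of 16 hypertrophy and osteoblast genes 6 had both marks at an end, against 55.3% of all genes. They were Sp7 (an osteoblast regulator), Alpl (alkaline phosphatase), Col1a1 (collagen I), Dlx3, Vegfa and Runx3. Another 8 had neither, against 29.2% of all genes. These were Ibsp, Spp1, Bglap, Dmp1, Phex, Mmp13 (a collagenase), Ihh and Mef2c, the last of which had both marks at an annotated start. Runx2, the regulator of hypertrophy and bone, had H3K27ac and no ATAC at its gene ends, but 167 kb of H3K27ac in its domain, with 12.8, 7.14 and 10.5 kb of open chromatin inside it. Col10a1, the collagen of hypertrophic cartilage, had 7.11 kb of H3K27ac and 0 kb of open chromatin in each library, and it lies within the span of Nt5dc1, so that the mark cannot be given to either gene. Ihh, the hedgehog ligand of prehypertrophic cells, had no H3K27ac, and was open over 0, 1.03 and 2.55 kb in the 3 libraries.

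Jaw regulators mostly had both marks, and most Hox genes had neither. Of 33 mandibular arch and neural crest genes, 26 had both at a gene end, against 55.3% of all genes. Pax9, a transcription factor of mouth and tooth development, was open without H3K27ac in the combined list and open in 3 of 3 libraries. Dlx4 and Pitx1 were among those with H3K27ac alone. The domains of these arch genes held a smaller part of their open chromatin inside H3K27ac than the typical gene. In the combined lists the median share was 79.9% over the 31 arch genes with open chromatin, against 100% over all 15394 such genes. Full containment held for 9 of these 31 genes, against 9996 of 15394. In the domain of Gsc, a target of endothelin signalling in the arch, the acetylated share was 88.2%, 93.7% and 88.1% in the 3 libraries. In that of Dlx6 it was 88.2%, 89.1% and 80.9%. Lower shares were seen for Lhx8 (52.7%, 71.1% and 44.1%) and for Barx1 (5.27%, 53.8% and 57.7%), whose replicate 1 stood below the other libraries. Alx4, Hand2, Msx1 and Six2 ranged from 68.5% to 90.9% over the 3 libraries, Dlx5 from 65.7% to 79.3%, and Pitx1 from 57.0% to 77.6%.

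Of 39 Hox genes, 37 had neither mark at an end in the combined lists, against 29.2% of all genes. At an end 26 were open in no single library, against 32.3% of all genes. None of the 39 had H3K27ac there, while 64.9% of all genes did. None had H3K27ac in its domain either, where 6211 of all 21627 genes had none. Hoxc6 and Hoxd1 were open without H3K27ac, in 3 of 3 libraries each. Hoxa10 had no open and no acetylated base in its domain in any list, and Hoxd13 had 0.486, 0.129 and 0 kb open and none acetylated. Of 24 other limb patterning genes 15 had both marks, against 55.3% of all genes. Tbx18 and Fgf8 were open without H3K27ac, or 2 of 17 with ATAC, against 9.66% of all genes with ATAC. Both counts lay near the shares over all genes. Tbx5, the forelimb T-box gene, had no H3K27ac in its domain and 2.79, 1.95 and 1.35 kb of open chromatin.

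Among markers of other cell types, most muscle and epithelial genes that were open at an end had no H3K27ac there. Of 8 epithelial genes with ATAC, 6 had no H3K27ac (among them Cdh1, Grhl2, Esrp1, Ovol1 and Cldn4), and of 7 muscle genes with ATAC, 5 had none (Myod1, Pax3, Actn2, Acta1 and Ckm), against 9.66% of all genes with ATAC. The neuron and Schwann cell list had 4 of 10 (Isl1, Snap25, Nefl and Syt1), the endothelial list 2 of 6 (Tek and Sox17) and the blood list 2 of 4 (Tal1 among them). The endothelial list also had 5 of its 12 genes with H3K27ac alone (Pecam1, Cdh5, Tie1, Sox18 and Egfl7), or 5 of 9 with H3K27ac, against 14.8% of all genes with H3K27ac. Of these, Sox18 and Egfl7 were open in 2 single libraries, and at annotated starts 1 of 8 endothelial genes had H3K27ac alone. H3K27ac alone at an end was not particular to the endothelial list. Among genes with H3K27ac there, it was seen in 3 of 5 epithelial, 3 of 5 blood and 2 of 4 muscle genes. In the neuron and Schwann cell list it was seen in 2 of 8. Of 13 open tendon and perichondrium genes none lacked H3K27ac, and none of 14 open reference genes did either. With so few genes, such a count lies near the 9.66% of all genes with ATAC. At annotated starts, where the share over all genes was 11.4%, fewer of these genes could be placed: 1 of 2 open muscle genes and 1 of 3 open epithelial genes had no H3K27ac there. In these pooled lists, peaks from a minority of other cells and peaks of cartilage cells cannot be told apart, and the part of other cells in the results above was not tested.

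**Figure D5:**
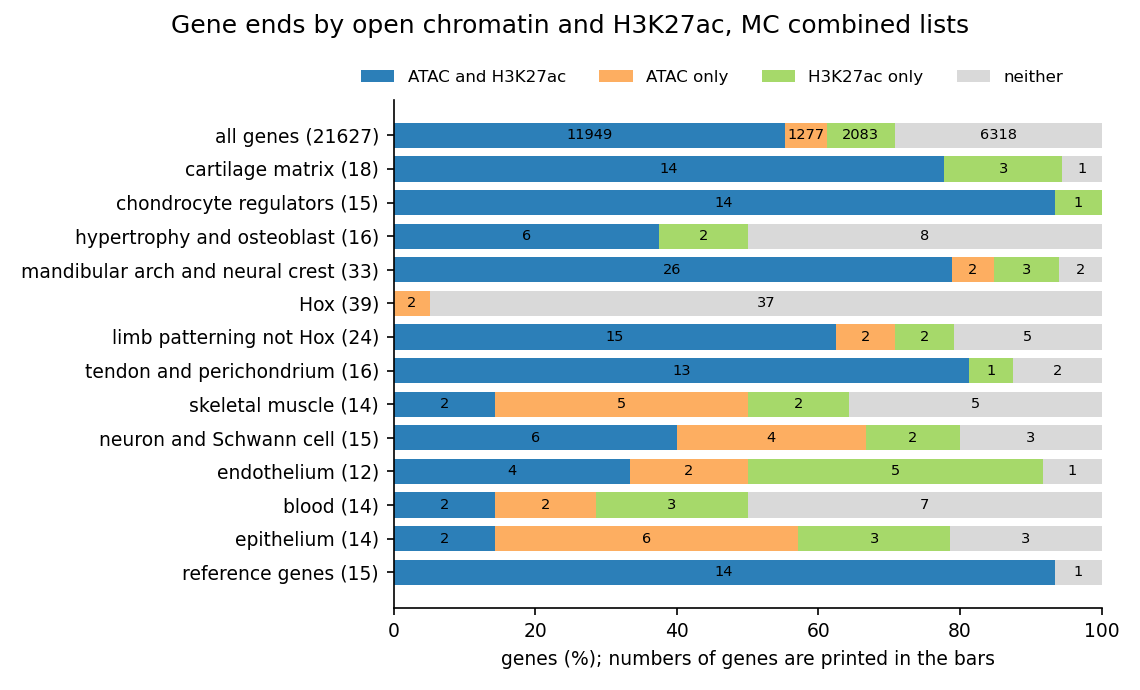
For all genes and each gene list (rows, number of genes in brackets), the bars give the share of genes (horizontal axis, percent) with ATAC and H3K27ac, ATAC only, H3K27ac only or neither within 1 kb of a gene end in the MC combined lists; counts are printed in the bars. The cartilage matrix, chondrocyte regulator, hypertrophy, tendon and reference rows have no gene with ATAC only. These rows hold between 6 and 14 genes with ATAC each, and 9.66% of all genes with ATAC had ATAC only. The Hox row is mostly neither, and the epithelium and muscle rows have the widest segments of ATAC only.

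Promoters were compared in the 300 base windows of RefSeq (250 bases before to 50 after the start), of which 21044 matched 17273 of the genes by symbol. In the combined lists 11050 windows had both marks, 1389 had ATAC only, 1860 had H3K27ac only and 6745 had neither. A GC box stood in 70.2% of windows with both, 57.1% with ATAC only, 22.8% with H3K27ac only and 12.6% with neither, against 46.7% of all windows. The median ratio of observed to expected CpG dinucleotides, which is near 1 where CpG is not depleted, was 0.791, 0.651, 0.237 and 0.188 in the same order. Median GC content was 62.3%, 59.3%, 53.3% and 46.3%. Promoters with H3K27ac and no ATAC thus lay nearer to promoters with neither mark in CpG ratio and GC box share, but between the classes in GC content. Hapln1 and Ucma above, with ratios of 0.136 and 0.177, show that CpG-poor promoters of cartilage genes occurred in both acetylated classes.

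Within each MC library, 69.8 ± 0.226% of open windows with H3K27ac held a GC box, against 54.8 ± 0.400% of those without (difference 15.0 ± 0.601 percentage points; SD, n = 3; higher in 3 of 3 libraries, exact sign-flip p = 0.25). The CpG ratio was 0.789 ± 0.00216 with the mark and 0.636 ± 0.00959 without. The CCAAT box of NFY was less frequent with the mark, at 37.7 ± 0.508% against 42.0 ± 0.887% without. In percentage points the differences were smaller for the other motifs searched on both strands, which stood in fewer windows. In proportion to the share itself, the differences for CTCF and AP-1 were larger than that for CCAAT. The AP-1, RUNX and CTCF shares were lower with the mark in 3 of 3 libraries (exact sign-flip p = 0.25 each). The AP-1 motif TGANTCA stood in 4.22% of windows with and 4.98% without H3K27ac, the RUNX motif TGTGGT in 10.98% and 11.48%, the SOX motif ACAAAG in 12.2% and 12.1%, and the CTCF motif in 0.765% and 1.03%. The SOX difference changed sign between libraries. Over all windows these motifs stood in 38.5% (CCAAT), 7.04% (AP-1), 14.8% (RUNX), 16.9% (SOX) and 0.565% (CTCF). A match is a run of letters and not a bound site.

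Genes were also ranked by the kb of each kind in their domain. Gse1 had the most open chromatin inside H3K27ac (53.8 kb in 354 kb of H3K27ac), followed by Zmiz1, Mroh2a, Grm4 and Nav2. Mroh2a stood apart, with 32.6 kb open of 33.5 kb of H3K27ac, while ATAC peaks covered 7.40% of all acetylated bases. Zmiz1 held the widest H3K27ac peak, of 234144 bp, and 556 kb of H3K27ac in all, with 38.1 kb open. Zmiz1, Sox5, Tenm4, Nav2 and Msi2 had the most H3K27ac outside ATAC peaks. Open chromatin outside H3K27ac was greatest at Macrod2 (13.7 kb outside, 0.235 kb inside), then at Smok2a, Robo1, Ugt1a1 and Nfia. The H3K27ac peak at Eif4g3 was the strongest, by total signal, of those with no ATAC peak in any MC list, at 93688 bp, followed by peaks at Pxdn, Gpr18, Vapb and Pitpnc1. Peaks at Synpo and Nfic held the most ATAC peaks, 19 each.

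The best-ranked recurrent open regions need care. Among those without H3K27ac, the first near a gene end was at Cadm2 (chr16:67619573-67621571), which ranked 656, 1013 and 489 by score in the 3 lists and lay 1803 kb from the nearest H3K27ac peak. The first distal one lay on chromosome 2 (chr2:98666195-98667307) with no gene within 1 Mb, and ranked 122, 1239 and 2720. Among those with H3K27ac, the first were a region 102 kb from its nearest gene, Esp38 (chr17:39842694-39848837; ranks 2, 1 and 1), and one at Sfi1 (chr11:3184029-3200069; ranks 1, 3 and 2), and at Mroh2a and Hjurp on chromosome 1. All 20 regions named by this rule were called in the 3 FL lists too. The handling of reads that match several places is not given in the sources used here, so the ranks of these regions are uncertain. The places of Mroh2a and Ugt1a1 in the ranking of genes by kb rest in part on such regions and are uncertain too.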

How the data were processed

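ATAC-seq lists of 3 MC and 3 FL libraries and combined MC lists of ATAC-seq and H3K27ac CUT&Tag were used. The submitters' processing notes name Trim Galore, Bowtie2, SAMtools, the build mm10, Genrich (ATAC peaks) and SEACR (CUT&Tag peaks); versions and thresholds are not given in the sources used here. The deposited ATAC lists give the authors' peak score (none under 200), used as ranks within a list, and a −log10 p. The deposited H3K27ac lists give the authors' total and highest signal. Read depth is unknown and limits precision in a way that cannot be stated.

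Peaks outside the autosomes and X were dropped (72 ATAC and 2 H3K27ac peaks of the combined lists); overlap meant 1 bp, and genes came from RefSeq (GRCm38.p6, 21627 protein-coding genes). Libraries were compared by exact permutation, and classes within libraries by exact sign-flip. No genome was used, so the planned motif search at ATAC summits was replaced by RefSeq promoter windows. Members, gene lists and named genes (a fixed list of 32, and the top 5 of each class) were chosen with earlier results of these data known. Some list members are counted but not reported here by name. Overlap functions were tested on simulated data. Computation used matplotlib 3.10.9, scipy 1.17.1, pandas 2.3.3 and numpy 2.4.6 in Python 3.11.15.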

Additional observations from a re-analysis of the deposited data

How the results depend on the processing

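The values rest on 1 pooled H3K27ac list and on 3 libraries, whose exact tests cannot go below 0.1 between tissues or 0.25 within MC. The mean MC share of ATAC peaks with H3K27ac (73.1%) was 83.3% for ATAC peaks above the median score of their list and 58.8% with the H3K27ac peaks above the median total signal. The share of H3K27ac peaks with ATAC (45.8%) was 32.4% and 64.7% under the same settings, and 43.3% with the same number of ATAC peaks per list. Its MC minus FL difference (-3.36 percentage points) turned to 0.0301 with the same number of peaks per list, and ran from -5.98 to 0.188 over left-out replicates, with 0.188 without replicate 2. Genes with ATAC and no H3K27ac at an end numbered 3110 (1277 in the main count) with the H3K27ac peaks above the median, and 3265 (1246) in gene domains; genes with H3K27ac and no ATAC numbered 1050 (2083) at starts only, a rule added after seeing the data that places fewer genes, and 820 (1268) in domains with the H3K27ac peaks above the median. The SOX difference at promoters (0.0446 percentage points) ran from -0.0948 (without replicate 1) to 0.128 over left-out replicates. The cause of these shifts was not tested. Leaving out a replicate gave a mean acetylated share of 71.1% to 74.9%, an MC minus FL difference of 3.85 to 9.65 percentage points in it (4.81 with the same number of peaks per list), a width difference of 224 to 289 bp, a difference near gene ends of 16.9 to 19.3 percentage points, and a lead of regions in every library over regions in 1 of 17.6 to 22.4 percentage points (26.5 with 3 libraries, where the classes are defined differently). With MC and FL libraries paired by number as a replicate block, the acetylated share differed by 7.40 percentage points (exact sign-flip p = 0.25) and the share of H3K27ac peaks with ATAC by -3.36 (p = 0.75). Same-numbered libraries correlated at 0.0673, 0.0948 and 0.0834 across 7271 genes, and differently numbered ones at -0.0792 to -0.00632. Every library thus correlated best with its own number. The same-numbered values were under 0.1 each, and the numbers were not taken to pair samples. Whether they mark a shared block was not tested. The motif search in windows at ATAC summits, its alternatives and starts by strand for peaks outside the promoter table were not run.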
